A study of Mus musculus with 12 samples.

Results

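The mouse genome carries a large group of potassium channel genes, and 90 protein-coding ones were listed in each of 2 count tables. The tables list 32285 genes for crushed retinas and 55401 for cultured cells labelled brain microvascular pericytes. The 90 genes were chosen by name alone: every symbol beginning with Kcn, then letters and a number, apart from Kcnj10 and Kcnj8, which were set aside. CPM here are a gene's counts scaled to a common library total, after TMM adjustment of the totals. Of the 90 genes, 62 in the retina and 38 in the pericyte-labelled cells had a group mean of at least 1 CPM. This level was reached by 29 in both tables, 33 in the retina alone and 9 in the pericyte-labelled cells alone. The test across all genes kept 64 of them in the retina, of 15440 genes tested, and 48 in the pericyte-labelled cells, of 16975.

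Bulk RNA was counted per gene in 12 wild-type libraries, in 4 groups of 3. The retina groups were optic nerve crush with vesicles shed by mesenchymal stem cells, small extracellular vesicles or sEV (ONC+i.o.MSC.sEV in the labels, where "i.o." is not spelled out) and optic nerve crush with phosphate-buffered saline (ONC+PBS), both taken at day 1. Per the labels, every retina had the crush. The pericyte-labelled groups, marked P4, were cultures treated with MSC.sEV and cultures treated with PBS, both for 12 hours. The age and sex of the animals, the source of the vesicles and whether replicates were separate animals or cultures are not stated by the labels. P-values therefore measure the spread between these libraries, which may be technical. The retina columns bear short names, M for 3 libraries and CTR for 3. These were read as the vesicle group and the PBS group. The direction of every retina result rests on that reading, and had the CTR libraries been uninjured, a retina difference would also hold the effect of the crush.

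Potassium channels let potassium leave or enter a cell along its gradient and so set the resting potential and the shape of electrical signals. Voltage-gated channels are assembled from several alpha subunits, some of which, the "silent" ones (Kcnf, Kcng, Kcns and Kcnv), form no channel alone and alter those they join. Beta and other auxiliary subunits change their gating, and calcium- and sodium-activated channels couple potassium flux to those ions. Inward rectifiers (Kcnj) pass current more easily into the cell than out of it, and tandem-pore channels (Kcnk) carry background leak. In photoreceptors, channels that contain the Kcnv2 subunit carry a potassium current of the inner segment that balances the light-regulated inward current, and in mural cells of vessels, potassium channels set the membrane potential that governs contraction.

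In the retina libraries, totals ran from 15580024 to 16842926 counts, and in the pericyte-labelled libraries from 33001248 to 37954077. For scale, 3 counts equalled 0.180 to 0.196 CPM in retina libraries and 0.0778 to 0.0895 CPM in pericyte-labelled ones. The 90 genes held 0.189%, 0.170% and 0.231% of counts in the vesicle retinas, against 0.245%, 0.279% and 0.269% in the PBS retinas. They held 0.0357%, 0.0396% and 0.0370% in the pericyte-labelled cells with vesicles, against 0.0474%, 0.0479% and 0.0485% with PBS. Both tables thus had a lower share in each vesicle library than in any PBS library. Lens RNA differed greatly between retina libraries. Lens markers took 1.85%, 7.11% and 0.0109% of counts with vesicles, against 0.649%, 0.0682% and 0.0590% with PBS. Results are therefore also given without the most lens-rich library of each group. That fit holds fewer libraries per group and has less power. A call lost in it does not by itself show dependence on lens RNA. Summed rod markers lay between 70100 and 85020 CPM in vesicle retinas, against 103000 to 107500 CPM in PBS retinas, with 6 of 10 called lower. Cone markers, with 5 of 8 lower, summed to 1788 to 2112 CPM, against 2447 to 2711 CPM with PBS, and bipolar markers, with 6 of 10 lower, to 781 to 902 CPM, against 997 to 1239 CPM with PBS. All 9 monocyte and macrophage markers and all 8 neutrophil markers were called higher there. The monocyte and macrophage markers summed to 725.8 to 1045 CPM with vesicles, against 51.4 to 81.3 CPM with PBS. The neutrophil markers summed to 388 to 849 CPM, against 14.6 to 26.7 CPM with PBS. In such bulk samples, fewer cells of a type and less RNA per cell cannot be told apart. The pericyte label was only partly matched by its markers. Rgs5 averaged 0.891 ± 0.430 CPM with vesicles, against 0.283 ± 0.199 CPM with PBS (SD, n = 3 each). Pdgfrb averaged 70.8 ± 4.89 CPM with vesicles, against 59.7 ± 3.49 CPM with PBS (SD, n = 3 each). The 10 pericyte and mural markers summed to 694.8 to 710.1 CPM with vesicles, against 666.7 to 707.7 CPM with PBS. Most of this was Acta2, at 587 ± 15.5 CPM with vesicles, against 572 ± 22.6 CPM with PBS (SD, n = 3 each). Of the 10, 3 averaged under 1 CPM, 2 were called higher and 2 lower. The 7 fibroblast markers summed to 567.6 to 594.9 CPM with vesicles, against 598.5 to 643.4 CPM with PBS, with 1 called lower. The 9 markers listed for Müller glia, several of them shared with astrocytes, summed there to 12090 to 12960 CPM with vesicles, against 11430 to 12210 CPM with PBS. Most of that sum was Vim, which many cultured cells express: Vim averaged 9825 ± 422 CPM with vesicles, against 9132 ± 364 CPM with PBS (SD, n = 3 each). The more specific Rlbp1 averaged 1.74 ± 0.490 CPM with vesicles, against 1.02 ± 0.200 CPM with PBS (SD, n = 3 each). Other glial markers were well above this: Aqp4 averaged 623 CPM with vesicles, against 477 CPM with PBS. Glul averaged 598 CPM, against 575 CPM with PBS, and Slc1a3 433 CPM, against 434 CPM with PBS. The 6 astrocyte markers, Aqp4 among them, summed to 1159 to 1213 CPM with vesicles, against 1131 to 1135 CPM with PBS. Of these, 1 was called higher and 2 lower. The 8 endothelial markers summed to 85.8 to 93.1 CPM with vesicles, against 57.8 to 58.8 CPM with PBS. Among them Flt1 averaged 78.5 ± 4.41 CPM with vesicles, against 44.3 ± 0.660 CPM with PBS (SD, n = 3 each) and rose (edgeR adjusted p = 4.18e-09), Kdr fell (1.09e-05), and 5 averaged under 1 CPM, with Cldn5 at 0 in all 6 libraries. The part of these cell types in the results was not tested.

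More of the potassium channel genes leaned towards lower values with vesicles than towards higher ones. In the retina, 49 of the 64 tested genes had a negative log2 fold change, against 51.7% of all genes tested, and their median was -0.29, against -0.02 over all genes. Only 8 of 64, or 12.5%, passed adjusted p under 0.05 in edgeR's quasi-likelihood test, with 15.9% of all genes passing. Of these, 3 rose, at a background of 10.7% for all genes, and 5 fell, at a background of 5.19%. In the pericyte-labelled cells, 36 of the 48 tested genes were negative, against 49.9% of all genes tested. Their median was -0.41, against 0.000558 over all genes. There 22 of 48, or 45.8%, passed, with 19.8% of all genes passing; 4 rose, at a background of 10.9%, and 18 fell, at a background of 8.9%. Values did not overlap between the groups for 15 of 64 genes in the retina, where 35.7% of all genes had no overlap, and for 29 of 48 in the pericyte-labelled cells, where 33.8% had none.

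**Figure D1:**
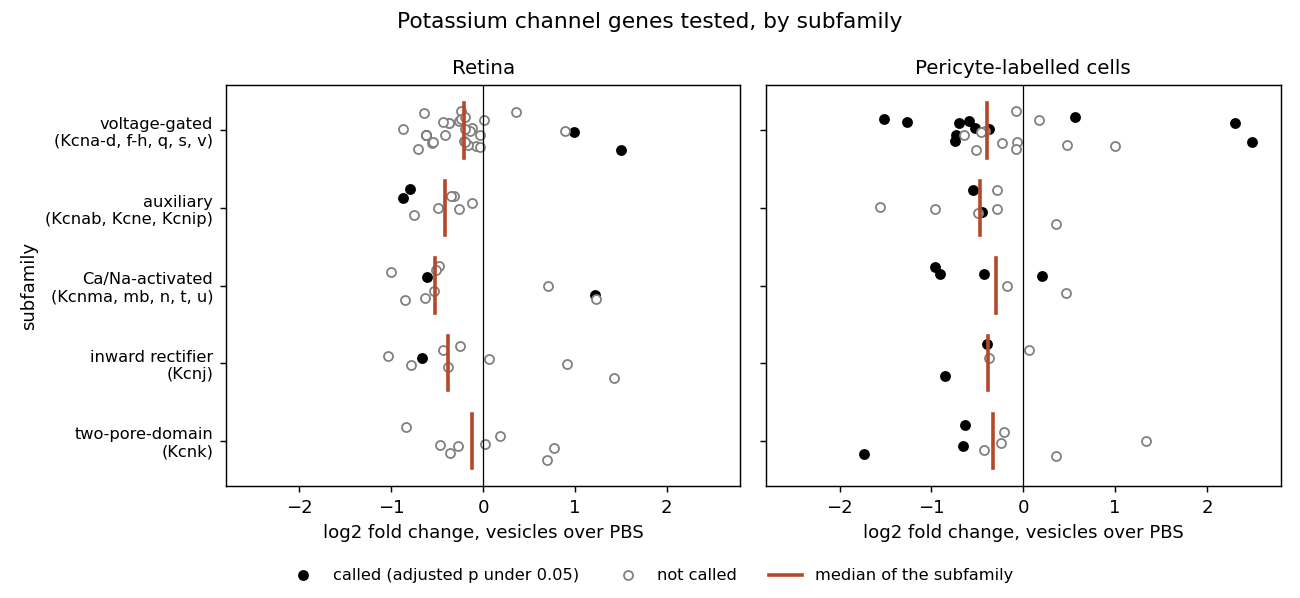
Log2 fold change (x axis, vesicles over PBS) of each potassium channel gene tested, by subfamily (rows), in the retina (left, 64 genes) and in pericyte-labelled cells (right, 48 genes). Filled points passed adjusted p under 0.05, open points did not, bars mark subfamily medians, and the vertical jitter has no meaning; all 5 medians lie below 0 in both panels.

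Every subfamily had a median below 0 in both tables. In the retina the medians were -0.21 for 29 voltage-gated genes (2 rose and 1 fell), -0.42 for 8 auxiliary subunit genes (2 fell), -0.53 for 10 calcium- and sodium-activated genes (1 rose and 1 fell), -0.38 for 9 inward rectifiers (1 fell) and -0.12 for 8 tandem-pore genes (none passed). In the pericyte-labelled cells they were -0.40 for 22 voltage-gated genes (3 rose and 8 fell), -0.47 for 8 auxiliary subunit genes (2 fell), -0.30 for 6 calcium- and sodium-activated genes (1 rose and 3 fell), -0.39 for 4 inward rectifiers (2 fell) and -0.33 for 8 tandem-pore genes (3 fell). The auxiliary genes of the retina were the subfamily in which all 8 tested genes, from Kcnab3 to Kcnip4, were negative.

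Per length of merged exons, which allows genes to be compared within a table, an inward rectifier and a silent subunit led the retina. Kcnj14, the inward rectifier Kir2.4, stood first at 125 ± 9.53 CPM per kb with vesicles, against 198 ± 4.54 CPM per kb with PBS. Kcnv2, a silent subunit needed for the photoreceptor current, stood second at 60.5 ± 9.64 CPM per kb with vesicles, against 92.7 ± 7.31 CPM per kb with PBS. Kcne2, a single-pass auxiliary subunit, had 33.5 ± 7.44 CPM per kb with vesicles, against 58.2 ± 3.56 CPM per kb with PBS. Kcnab2, a Kv beta subunit gene, had 21.5 ± 4.05 CPM per kb with vesicles, against 30.1 ± 5.71 CPM per kb with PBS. Kcnip4, a calcium-binding Kv4 partner gene, had 25.5 ± 4.62 CPM per kb with vesicles, against 27.7 ± 0.151 CPM per kb with PBS, and Kcnab2 and Kcnip4 did not differ from each other beyond their spread in either group. Kcnk1, a tandem-pore leak channel gene, had 14.7 ± 4.11 CPM per kb with vesicles, against 18.8 ± 1.33 CPM per kb with PBS, and most other genes lay below 10 CPM per kb in both groups. By counts alone, Kcnj14 and Kcnv2 made up 17.1% and 15.6% of the potassium channel counts of vesicle retinas, against 20.5% and 18.1% in PBS retinas.

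The pericyte-labelled cells had a flatter order, led by small-conductance calcium-activated channels and an inward rectifier. Kcnn1 (SK1) had 10.7 ± 0.420 CPM per kb with vesicles, against 9.27 ± 0.101 CPM per kb with PBS. Kcnj16 (Kir5.1, a partner of other Kir subunits) had 7.12 ± 0.206 CPM per kb with vesicles, against 9.39 ± 0.453 CPM per kb with PBS, so that Kcnn1 and Kcnj16 did not differ beyond their spread with PBS but stood apart with vesicles. Kcnn3 (SK3) followed at 5.60 ± 0.427 CPM per kb with vesicles, against 7.52 ± 0.478 CPM per kb with PBS, then Kcnab1, a beta subunit of Kv1 channels, at 4.11 ± 0.371 CPM per kb with vesicles, against 5.61 ± 0.265 CPM per kb with PBS, and Kcnd3, the Kv4.3 transient-current subunit, at 3.22 ± 0.168 CPM per kb with vesicles, against 4.18 ± 0.0432 CPM per kb with PBS. Kcns3 (the silent subunit Kv9.3) had 4.97 ± 0.662 CPM per kb with vesicles, against 3.36 ± 0.293 CPM per kb with PBS; with PBS it did not differ beyond the spread from its neighbours Kcnab2, Kcnh3 and Kcnj2.

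**Figure D2:**
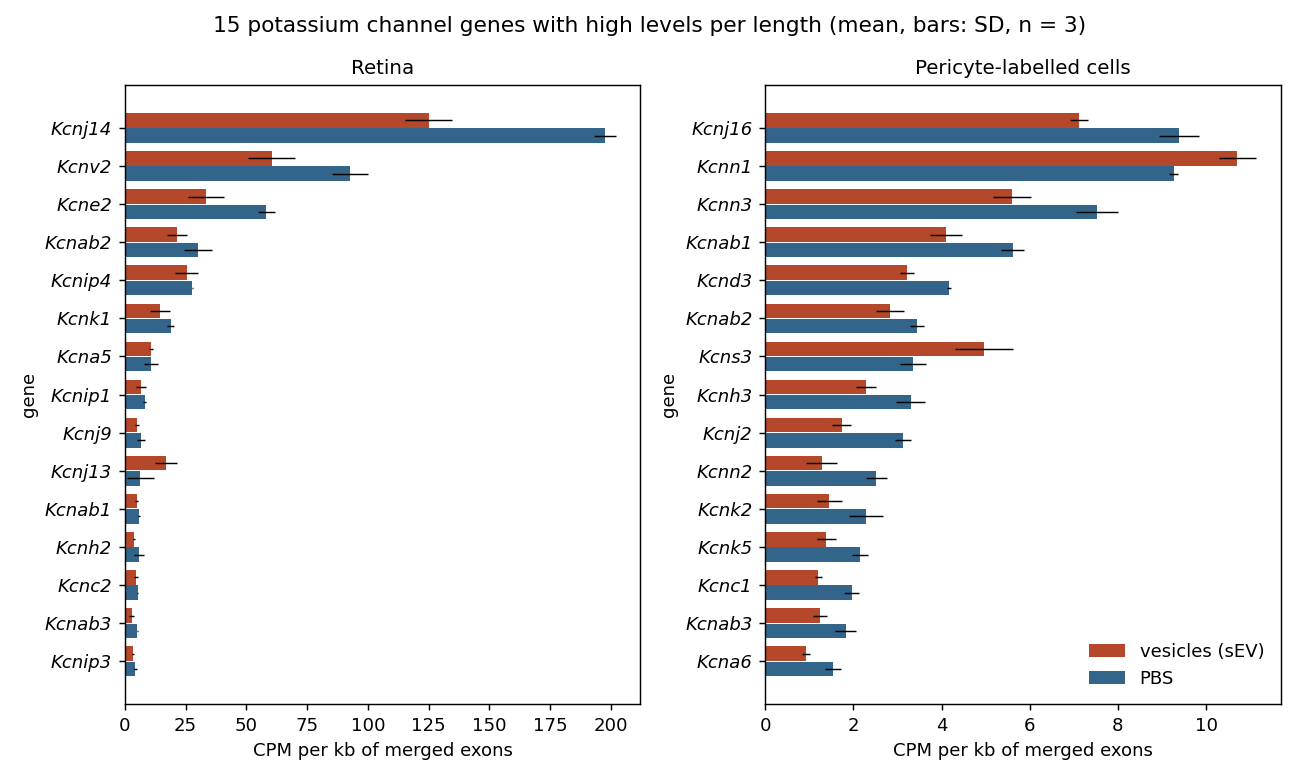
Levels per length (x axis, CPM per kb of merged exons; mean with SD as bars, 3 libraries each) of 15 potassium channel genes with high PBS levels (rows), with vesicles above PBS, in the retina (left) and in pericyte-labelled cells (right). Kcnj14 leads the retina at 125 with vesicles, against 197.5 with PBS, and the axes differ in scale since the tables list different gene sets.

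Promoter windows from 250 bases before to 50 after the start were available for 65 of the 90 genes, 90 windows in all (RefSeq, build GRCm38.p6). They are printed for Kcng4 and Kcne2, whose retina changes are among the most stable ones below, and for Kcnh1, Kcnn1 and Kcnf1, whose response differed between the tables. Capitals mark the GC box GGGCGG and the CRX core TAATCC, read on either strand, and Kcne2 and Kcnn1 each have a second annotated start that is not shown.
Kcng4, chr8:119635631-119635930, minus strand: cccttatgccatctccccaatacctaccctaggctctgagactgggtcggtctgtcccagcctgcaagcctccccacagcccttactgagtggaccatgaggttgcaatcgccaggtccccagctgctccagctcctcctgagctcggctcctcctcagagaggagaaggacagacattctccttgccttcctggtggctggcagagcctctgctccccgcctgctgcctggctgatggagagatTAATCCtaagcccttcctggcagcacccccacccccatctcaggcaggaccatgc
Kcne2, chr16:92292139-92292438, plus strand: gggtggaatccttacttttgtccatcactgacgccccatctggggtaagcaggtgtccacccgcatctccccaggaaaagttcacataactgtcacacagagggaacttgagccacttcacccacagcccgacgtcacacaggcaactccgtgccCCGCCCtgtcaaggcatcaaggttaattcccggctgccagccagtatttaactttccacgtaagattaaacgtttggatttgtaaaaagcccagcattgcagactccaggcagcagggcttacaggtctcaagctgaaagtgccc
Kcnh1, chr1:192190527-192190826, plus strand: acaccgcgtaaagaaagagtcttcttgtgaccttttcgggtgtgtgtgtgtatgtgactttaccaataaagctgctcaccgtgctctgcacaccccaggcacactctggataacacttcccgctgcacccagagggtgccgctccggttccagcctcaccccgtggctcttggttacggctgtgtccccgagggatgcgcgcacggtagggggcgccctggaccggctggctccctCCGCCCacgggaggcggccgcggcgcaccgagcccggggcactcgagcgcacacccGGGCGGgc
Kcnn1, chr8:70863209-70863508, minus strand: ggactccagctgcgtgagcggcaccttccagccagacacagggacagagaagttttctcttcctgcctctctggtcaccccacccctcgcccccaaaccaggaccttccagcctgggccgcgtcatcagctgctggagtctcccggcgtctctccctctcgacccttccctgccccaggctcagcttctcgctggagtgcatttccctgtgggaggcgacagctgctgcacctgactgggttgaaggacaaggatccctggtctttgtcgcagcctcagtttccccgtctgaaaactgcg
Kcnf1, chr12:17176839-17177138, minus strand: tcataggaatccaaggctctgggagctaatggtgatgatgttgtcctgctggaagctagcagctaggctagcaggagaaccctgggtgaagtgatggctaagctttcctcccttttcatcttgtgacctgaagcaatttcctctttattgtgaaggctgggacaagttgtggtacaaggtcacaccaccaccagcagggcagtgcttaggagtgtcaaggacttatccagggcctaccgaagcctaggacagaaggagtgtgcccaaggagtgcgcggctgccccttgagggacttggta
The Kcng4 window holds 1 CRX core, beginning at base -5 from the start; the Kcne2 window holds 1 GC box at -95 and the Kcnh1 window 2, at -14 and 43. None of the 6 motifs searched was in the Kcnn1 and Kcnf1 windows. GGGCGG was in 47.8% of the 90 windows of potassium channel genes, against 35.7% of all 32851 windows. The TATA box TATAAA was in 5.56% of their windows, against 13.6% of all, and TAATCC in 2.22%, against 7.06% of all. The AP-1 site TGANTCA was in 4.44%, against 7.81% of all, the E-box CACGTG in 7.78%, against 7.15% of all, and TGACGTCA in 0%, against 1.79% of all. A match describes letters in a window and is not evidence of binding.

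Among voltage-gated genes of the retina, Kcnv2 fell and Kcng4 and Kcnh1 rose with vesicles. Kcnv2 stood at 298, 266 and 363 CPM with vesicles, against 515, 465 and 442 CPM with PBS. All 3 vesicle libraries lay below every PBS library. The Kcnv2 log2 fold change was -0.62 ± 0.13 (SE; edgeR adjusted p = 0.00975). The Kcnv2 call was lost without the first vesicle library (adjusted p = 0.0523) and without the most lens-rich library of each group (0.0679). Kcng4 encodes Kv6.4, another silent subunit. It stood at 21.2, 17.6 and 14.3 CPM with vesicles, against 9.01, 9.73 and 7.99 CPM with PBS, and the lowest vesicle library was well above the highest PBS one (log2 fold change 0.99 ± 0.18, SE, edgeR adjusted p = 0.00573), a call kept in all 11 alternative fits. Kcnh1, the ether-a-go-go channel EAG1, had 6.75, 13.2 and 4.14 CPM with vesicles, against 2.15, 3.16 and 3.12 CPM with PBS. The groups did not overlap, but the highest value, in the second vesicle library, coincided with the highest lens share. For Kcnh1 the log2 fold change was 1.51 ± 0.41 (SE; edgeR adjusted p = 0.0394). Without the most lens-rich library of each group the Kcnh1 change was 0.80 with an adjusted p of 0.183, and without that vesicle library alone it was 0.95 with an adjusted p of 0.130; the call was lost in 7 of 11 alternative fits, among them those without vesicle library 1 (0.0792) or PBS library 1 (0.121), 2 (0.113) or 3 (0.0881). The part of lens tissue in it was not tested further.

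The other 26 voltage-gated genes at 1 CPM or more did not pass, with log2 fold changes from -0.87 to 0.90. Kcnh6, an ERG-type channel gene, came nearest to the threshold among them, at 6.82, 4.74 and 5.25 CPM with vesicles, against 8.55, 10.6 and 8.29 CPM with PBS, without overlap. The Kcnh6 log2 fold change was -0.71 ± 0.22 (SE; edgeR adjusted p = 0.0560). The 5 Shaker-type (Kcna) genes tested had log2 fold changes from -0.37 for Kcna6 to 0.01 for Kcna5, and none passed. The most counted were Kcna5 at 31.1 ± 2.25 CPM with vesicles, against 30.95 ± 8.39 CPM with PBS (SD, n = 3) and Kcna2 at 23.6 ± 7.22 CPM with vesicles, against 24.9 ± 2.16 CPM with PBS (SD, n = 3).

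**Figure D3:**
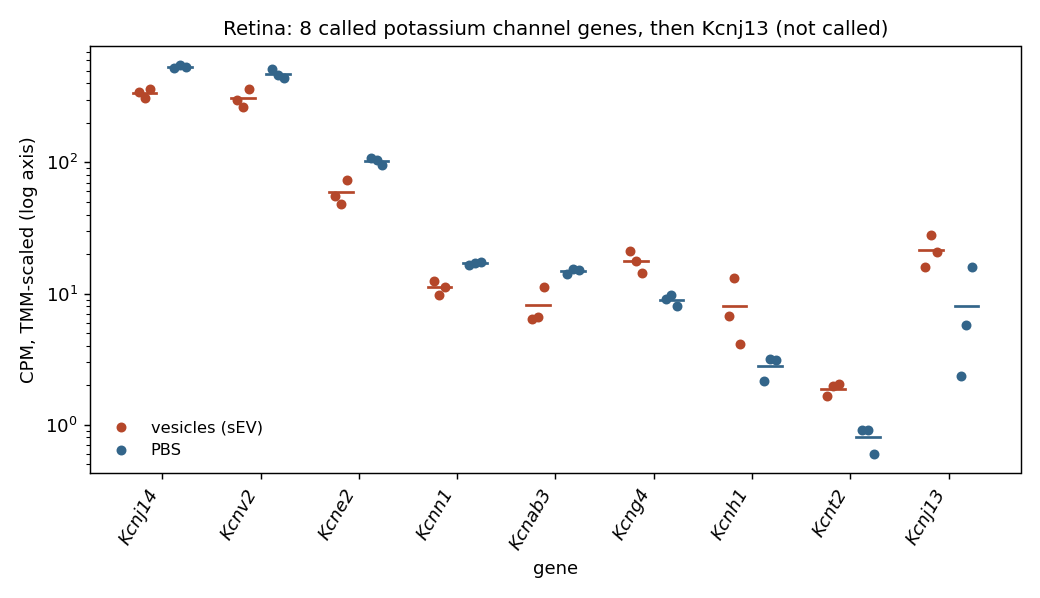
CPM per library (y axis, log scale) of the 8 potassium channel genes that passed in the retina and of Kcnj13, which did not (x axis), vesicles left of PBS. Points are libraries and lines group means; the 5 genes on the left were lower in all 3 vesicle libraries and the next 3 higher.

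All 8 auxiliary subunit genes tested in the retina had negative fold changes, and 2 of them fell. Kcne2 had 55.4, 48.3 and 73.8 CPM with vesicles, against 108, 104 and 95.9 CPM with PBS. Each vesicle library lay below each PBS library. For Kcne2 the log2 fold change was -0.80 ± 0.15 (SE; edgeR adjusted p = 0.00688). The call was lost only without the most lens-rich libraries (adjusted p = 0.0578). Kcnab3, a Kv beta subunit, had 6.43, 6.58 and 11.3 CPM with vesicles, against 14.03, 15.5 and 15.02 CPM with PBS; the groups did not overlap, and the third vesicle library was nearest to the PBS values. The Kcnab3 log2 fold change was -0.87 ± 0.23 (SE; edgeR adjusted p = 0.0295). That call was lost in 6 of 11 alternative fits: without vesicle library 1 (adjusted p = 0.112) or 2 (0.106), without PBS library 1 (0.0578), 2 (0.105) or 3 (0.0699), and without the most lens-rich libraries (0.144). Kcnab3 has an antisense neighbour in the annotation, and as no source used here gives the strand setting of the counting, reads of the pair cannot be told apart. The subfamily's most counted gene, Kcnab2, had 119, 98.2 and 143 CPM with vesicles, against 133, 177 and 194 CPM with PBS, with overlapping groups. For Kcnab2 the log2 fold change was -0.49 ± 0.18 (SE; edgeR adjusted p = 0.102). It passed in 4 of 11 alternative fits, with DESeq2 at an adjusted p of 0.0258. The remaining 5 tested genes, Kcnab1 and the calcium-binding Kv4 partners Kcnip1, Kcnip2, Kcnip3 and Kcnip4, gave log2 fold changes from -0.75 to -0.12 without passing. Kcne4 reached 1 CPM only through the second vesicle library, at 4.11 CPM, against 0.382 and 0.123 CPM in the other vesicle libraries and 0.131, 0.182 and 0.240 CPM with PBS, and it was removed from the test by its low counts.

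Calcium- and sodium-activated genes were split. Kcnn1 had 12.4, 9.74 and 11.3 CPM with vesicles, against 16.6, 17.2 and 17.4 CPM with PBS. The PBS libraries lay close together and above all vesicle libraries. The Kcnn1 log2 fold change was -0.61 ± 0.15 (SE; edgeR adjusted p = 0.0200). Without vesicle library 2, PBS library 2, PBS library 3 or the most lens-rich libraries, the adjusted p of Kcnn1 was 0.0828, 0.0818, 0.0555 and 0.0820. Kcnt2, the sodium-activated channel Slick, was low in both groups at 1.66, 1.96 and 2.04 CPM with vesicles, against 0.914, 0.912 and 0.601 CPM with PBS, with every vesicle library above every PBS library. For Kcnt2 the log2 fold change was 1.22 ± 0.35 (SE; edgeR adjusted p = 0.0453). Its call was lost in 9 of the 11 alternative fits, including each that left out a library (adjusted p from 0.0763 to 0.141). Kcnma1, the large-conductance BK channel and the most counted gene here, had 51.4, 47.9 and 56.8 CPM with vesicles, against 76.2, 85.5 and 56.1 CPM with PBS, where only the third PBS library reached down to the vesicle values. The Kcnma1 log2 fold change was -0.48 ± 0.15 (SE; edgeR adjusted p = 0.0607). It passed in 3 of the 11 alternative fits, with DESeq2 (adjusted p = 0.0247), with no filter on low counts (0.0345) and without PBS library 3 (log2 fold change -0.64, 0.0112), and its adjusted p reached 0.339 in the others. Kcnn2 (SK2) was just above the threshold at 3.63, 2.97 and 4.20 CPM with vesicles, against 5.16, 6.57 and 7.81 CPM with PBS, without overlap. For Kcnn2 the log2 fold change was -0.85 ± 0.26 (SE; edgeR adjusted p = 0.0502).

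Kcnj14 was the inward rectifier with the smallest adjusted p of all 64 genes. It had 347, 311 and 361 CPM with vesicles, against 525, 549.6 and 535 CPM with PBS. The groups stood far apart relative to their spread. The Kcnj14 log2 fold change was -0.66 ± 0.09 (SE; edgeR adjusted p = 0.00178). The call was kept in all 11 alternative fits. Kcnj13, the Kir7.1 channel of the retinal pigment epithelium, was higher in each vesicle library, at 16.1, 27.8 and 20.7 CPM with vesicles, against 2.35, 5.78 and 15.9 CPM with PBS, but did not pass. For Kcnj13 the log2 fold change was 1.42 ± 0.70 (SE; edgeR adjusted p = 0.252). Summed markers of the pigment epithelium, a list added after the data were seen, were at 1459, 3310 and 2570 CPM in the same vesicle libraries, against 393, 896 and 2003 CPM in the PBS libraries, the same order within each group as Kcnj13; their part in the result was not tested. Kcnj12 had 5.54, 12.5 and 4.14 CPM with vesicles, against 3.39, 5.41 and 3 CPM with PBS, again with its peak in the lens-rich second vesicle library. The Kcnj12 log2 fold change was 0.91 ± 0.43 (SE; edgeR adjusted p = 0.202). No tandem-pore gene passed. Kcnk1 had 22.4, 35.9 and 39.95 CPM with vesicles, against 42.95, 44.5 and 38.8 CPM with PBS, with overlap. For Kcnk1 the log2 fold change was -0.36 ± 0.20 (SE; edgeR adjusted p = 0.254). Kcnk9, the TASK-3 leak channel, had 3.06, 2.34 and 3.03 CPM with vesicles, against 4.37, 5.90 and 4.81 CPM with PBS, without overlap. The Kcnk9 log2 fold change was -0.84 ± 0.26 (SE; edgeR adjusted p = 0.0546).

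The lower genes were also set against the rod markers of the same libraries, a comparison chosen after the data were seen, since rod RNA was itself lower with vesicles. Per 1000 CPM of summed rod markers, Kcnj14 was at 4.08, 4.43 and 4.43 CPM in vesicle retinas, against 4.89, 5.34 and 5.05 CPM in PBS retinas, without overlap. Kcne2 was at 0.652, 0.689 and 0.905 CPM, against 1.01, 1.01 and 0.906 CPM with PBS, and Kcnn1 at 0.146, 0.139 and 0.139 CPM, against 0.155, 0.167 and 0.165 CPM with PBS. For these 3 genes the exact 2-sided permutation p was 0.1, the smallest that 3 against 3 libraries can give. For Kcne2 it rests on a narrow gap, 0.905 against 0.906 CPM. Every gene set on this scale was chosen because it was already called lower in these libraries. Neither the permutation p nor the overlap is therefore independent support. On this scale the log2 ratio of the group means, vesicles over PBS, was -0.24 for Kcnj14, -0.38 for Kcne2 and -0.20 for Kcnn1. The fitted log2 fold changes of the same genes were -0.66, -0.80 and -0.61. Dividing by a rod sum that was lower with vesicles shifts every gene alike, whether or not rods express it. The smaller size on this scale was therefore fixed in advance and says nothing about these genes. Kcnv2, at 3.51, 3.79 and 4.45 CPM with vesicles and 4.79, 4.51 and 4.17 CPM with PBS, and Kcnab3, at 0.0757, 0.0938 and 0.139 CPM with vesicles and 0.131, 0.151 and 0.142 CPM with PBS, overlapped on this scale, each with an exact p of 0.2 and with log2 ratios of -0.20 and -0.46. How much of the retina changes came from rod RNA was not tested further.

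In the pericyte-labelled cells, the silent subunit genes Kcnf1 and Kcns3, the M-current gene Kcnq3 and Kcnn1 rose, and 18 genes fell. Kcnf1, the silent subunit Kv5.1, had 6.62, 8.51 and 7.14 CPM with vesicles, against 2, 1.01 and 1.46 CPM with PBS. Its lowest vesicle library was above 3 times its highest PBS library. For Kcnf1 the log2 fold change was 2.31 ± 0.22 (SE; edgeR adjusted p = 8.27e-08). Kcnq3, a subunit of the M-current channel, had 1.85, 4.05 and 3.37 CPM with vesicles, against 0.597, 0.594 and 0.459 CPM with PBS, with all vesicle libraries higher. The Kcnq3 log2 fold change was 2.49 ± 0.34 (SE; edgeR adjusted p = 1.25e-05). The PBS level was low. Kcns3 had 18.1, 15 and 14.1 CPM with vesicles, against 11.3, 9.57 and 11.1 CPM with PBS, again without overlap. For Kcns3 the log2 fold change was 0.56 ± 0.12 (SE; edgeR adjusted p = 0.00157).

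The 8 voltage-gated genes that fell belonged to several families. Kcns1, a silent subunit like Kcns3, had 1.04, 1.45 and 1.19 CPM with vesicles, against 3.58, 4.43 and 2.54 CPM with PBS. The Kcns1 log2 fold change was -1.51 ± 0.27 (SE; edgeR adjusted p = 0.000282). These related genes changed in opposite directions. Kcnh1 had 1.04, 2.41 and 1.94 CPM with vesicles, against 4.59, 4.07 and 4.32 CPM with PBS, all vesicle libraries lower. For Kcnh1 the log2 fold change was -1.26 ± 0.25 (SE; edgeR adjusted p = 0.000936). Kcna6, a Shaker-type Kv1 gene, had 5.73, 4.84 and 5.82 CPM with vesicles, against 7.94, 10.04 and 9.51 CPM with PBS. The Kcna6 log2 fold change was -0.74 ± 0.15 (SE; edgeR adjusted p = 0.000716). Kcnc1, the fast Kv3.1 channel, was at a similar remove, with tight groups. The libraries gave 11.2, 10.9 and 12.2 CPM with vesicles, against 17.3, 17.95 and 20.4 CPM with PBS. For Kcnc1 the log2 fold change was -0.70 ± 0.11 (SE; edgeR adjusted p = 4.72e-05). Kcnh2, the ERG1 channel, had 3.85, 5.72 and 3.69 CPM with vesicles, against 7.16, 6.36 and 6.48 CPM with PBS, and its second vesicle library came closest to the PBS range. The Kcnh2 log2 fold change was -0.59 ± 0.18 (SE; edgeR adjusted p = 0.0207). This call was lost in 4 of the 11 alternative fits, without vesicle library 1 (adjusted p = 0.0589) or 3 (0.102) or PBS library 1 (0.082) or 3 (0.0539). Kcnd3, the most counted voltage-gated gene, had 31.4, 32.1 and 29.03 CPM with vesicles, against 39.7, 39.9 and 40.5 CPM with PBS, a small change with little spread. For Kcnd3 the log2 fold change was -0.38 ± 0.07 (SE; edgeR adjusted p = 0.000777). It has an antisense neighbour whose reads cannot be told apart from its own. Kcnh3, an ELK-type channel gene, fell to 13.2 ± 1.27 CPM with vesicles, against 18.99 ± 1.86 CPM with PBS (SD, n = 3). The Kcnh3 log2 fold change was -0.53 ± 0.11 (SE; edgeR adjusted p = 0.00119).

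**Figure D4:**
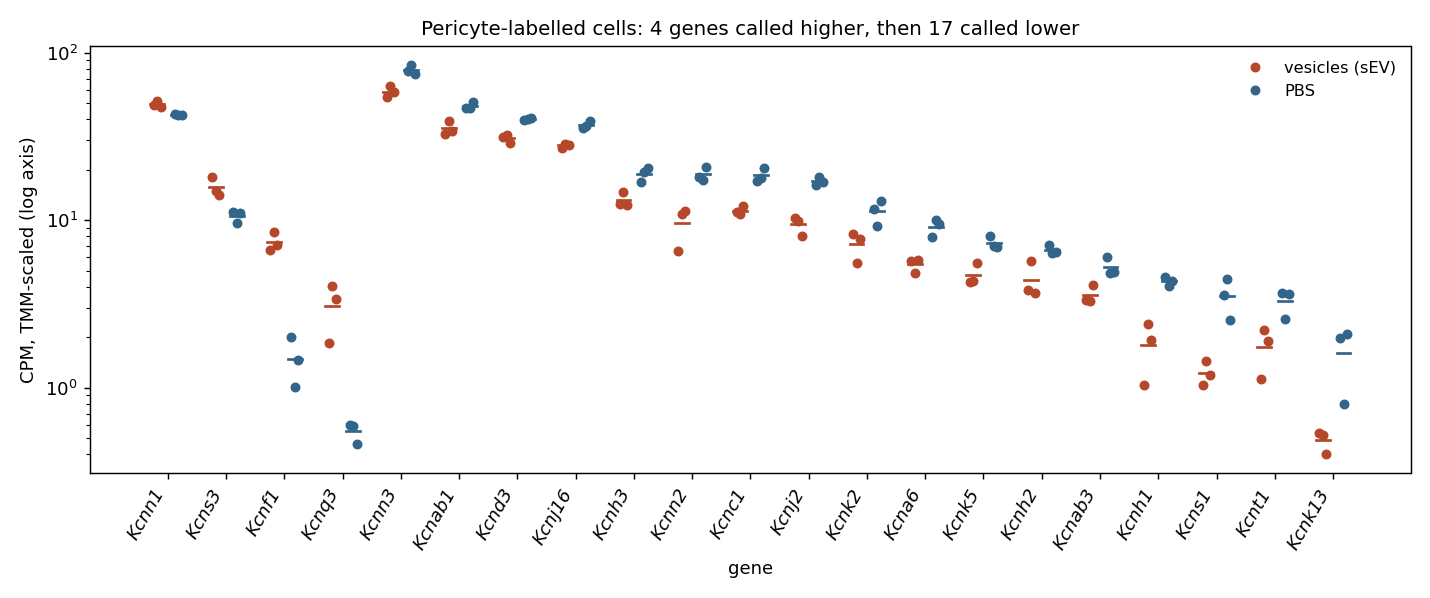
CPM per library (y axis, log scale) of 21 potassium channel genes that passed in the pericyte-labelled cells (x axis: 4 that rose, then 17 that fell, each set by PBS level), vesicles left of PBS. Points are libraries and lines group means; no gene shown has overlapping groups, and Kcnf1 and Kcnq3 have the widest gaps among those that rose.

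Small-conductance calcium-activated channels, which link internal calcium to hyperpolarisation, went in both directions in these cells. Kcnn2 had 6.59, 10.9 and 11.4 CPM with vesicles, against 18.2, 17.4 and 20.9 CPM with PBS, with the first vesicle library the lowest. For Kcnn2 the log2 fold change was -0.96 ± 0.15 (SE; edgeR adjusted p = 6.1e-05). Kcnn3, the most counted of the 90 genes in this table, had 54.4, 63.2 and 57.97 CPM with vesicles, against 77.8, 84 and 74.1 CPM with PBS. The Kcnn3 log2 fold change was -0.43 ± 0.07 (SE; edgeR adjusted p = 0.000110). By contrast Kcnn1 had 48.9, 51.1 and 47.3 CPM with vesicles, against 43.1, 42.2 and 42.3 CPM with PBS, a small rise that cleared the tight PBS values. For Kcnn1 the log2 fold change was 0.21 ± 0.07 (SE; edgeR adjusted p = 0.0342). The sodium-activated gene Kcnt1 (Slack) had 1.13, 2.22 and 1.91 CPM with vesicles, against 3.66, 2.59 and 3.65 CPM with PBS. The Kcnt1 log2 fold change was -0.91 ± 0.27 (SE; edgeR adjusted p = 0.0188). Its call was lost in 3 of 11 alternative fits, without vesicle library 1 (adjusted p = 0.0712) or PBS library 1 (0.0776) or 3 (0.0896). Genes of the BK channel were scarce: Kcnma1 stayed under 1 CPM, and the smooth-muscle beta subunit gene Kcnmb1, at 3.86 ± 1.07 CPM with vesicles, against 4.35 ± 0.819 CPM with PBS (SD, n = 3), did not pass.

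Of 4 inward rectifiers tested, 2 fell. Kcnj2, the Kir2.1 channel that stabilises the resting potential, had 10.3, 9.93 and 8.08 CPM with vesicles, against 16.2, 18.1 and 16.9 CPM with PBS, without overlap. For Kcnj2 the log2 fold change was -0.86 ± 0.12 (SE; edgeR adjusted p = 1.12e-05). Kcnj16 had 27.1, 28.7 and 28.3 CPM with vesicles, against 35.6, 36.3 and 38.96 CPM with PBS, with both groups tight. The Kcnj16 log2 fold change was -0.40 ± 0.08 (SE; edgeR adjusted p = 0.000634). Kcnj14, which led the retina, was at only 1.28 ± 0.321 CPM with vesicles, against 1.66 ± 0.433 CPM with PBS (SD, n = 3) and did not pass. Among tandem-pore genes, Kcnk2 (TREK-1, gated by stretch and lipids) had 8.29, 5.58 and 7.73 CPM with vesicles, against 11.7, 9.24 and 13.04 CPM with PBS. For Kcnk2 the log2 fold change was -0.66 ± 0.16 (SE; edgeR adjusted p = 0.00413). Kcnk5 (TASK-2) had 4.27, 4.35 and 5.55 CPM with vesicles, against 8.07, 6.98 and 6.94 CPM with PBS. The Kcnk5 log2 fold change was -0.63 ± 0.16 (SE; edgeR adjusted p = 0.00585). Kcnk13 (THIK-1, best known in microglia) had 0.537, 0.520 and 0.404 CPM with vesicles, against 1.97, 0.802 and 2.08 CPM with PBS; the second PBS library was near the vesicle values. For Kcnk13 the log2 fold change was -1.73 ± 0.43 (SE; edgeR adjusted p = 0.00573). Without the third PBS library the adjusted p was 0.0552. Summed microglial markers lay at 176.8 to 195.3 CPM with vesicles, against 189.9 to 200.5 CPM with PBS, overlapping ranges with none of 8 markers called; their part in the Kcnk13 result was not tested. Both Kv beta subunit genes that passed also fell. Kcnab1 had 32.8, 38.9 and 34.2 CPM with vesicles, against 46.97, 46.8 and 50.8 CPM with PBS, without overlap. The Kcnab1 log2 fold change was -0.45 ± 0.08 (SE; edgeR adjusted p = 0.000196). Kcnab3 averaged 3.58 ± 0.467 CPM with vesicles, against 5.25 ± 0.689 CPM with PBS (SD, n = 3). For Kcnab3 the log2 fold change was -0.55 ± 0.18 (SE; edgeR adjusted p = 0.0361). Markers of the oligodendrocyte lineage summed to 391.2 to 451.3 CPM with vesicles, against 531.4 to 546.3 CPM with PBS, with 3 of 8 called lower; their part in these results was not tested.

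Genes under 1 CPM in every group numbered 28 in the retina and 52 in the pericyte-labelled cells. None passed: the tested ones were Kcnk6, Kcnn4 and Kcnj6 in the retina, and 10 in the pericyte-labelled cells with log2 fold changes from -1.56 (Kcne4) to 1.34 (Kcnk12). No count at all was found in the retina for Kcnj1, Kcnk16 and Kcnk18, nor in the pericyte-labelled cells for these and Kcna10 and Kcnv1; this allows up to 3 counts per library, the CPM given above. At the limit of 1 CPM, Kcnk13 in the retina was just inside at a group mean of 1.01 CPM and Kcnk6 just outside at 0.989 CPM, and in the pericyte-labelled cells Kcna2 was just inside at 1.06 CPM and Kcna4 just outside at 0.938 CPM. Kcng4 and Kcnv2, both changed in the retina, were among the genes under this limit in the pericyte-labelled cells.

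The vesicle effect was then compared between the tables in 39 genes tested in both, by a joint limma fit of the difference. It passed for 4 of the 39 genes, with 11.9% of 13712 genes passing. Kcnh1 was higher in the retina and lower in the pericyte-labelled cells, with a difference of 2.67 ± 0.54 (log2, retina minus pericyte-labelled; SE; limma adjusted p = 0.00325). Kcnn1 was the reverse, with a difference of -0.83 ± 0.16 (SE; limma adjusted p = 0.00222). Kcnf1 and Kcnq3 rose in the pericyte-labelled cells but did not pass in the retina. Retina libraries gave Kcnf1 1.78, 1.26 and 2.35 CPM with vesicles, against 1.37, 2.37 and 2.22 CPM with PBS. They gave Kcnq3 1.85, 2.53 and 3.83 CPM with vesicles, against 4.18, 5.11 and 3.54 CPM with PBS. Both sets of retina values overlap. Their differences were -2.49 ± 0.47 for Kcnf1 (SE; limma adjusted p = 0.0015) and -3.10 ± 0.56 for Kcnq3 (SE; limma adjusted p = 0.00108). Kcnab3 was the 1 gene called in the same direction, lower, in both tables. Its retina call was lost in 6 of 11 alternative fits, and its call in the pericyte-labelled cells was not followed through them. In neither table can its reads be told apart from those of its antisense neighbour. For the other 35 genes no difference passed, which does not show that they responded alike. Tissue, setting, exposure time and library origin all differ between the tables and cannot be told apart.

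**Figure D5:**
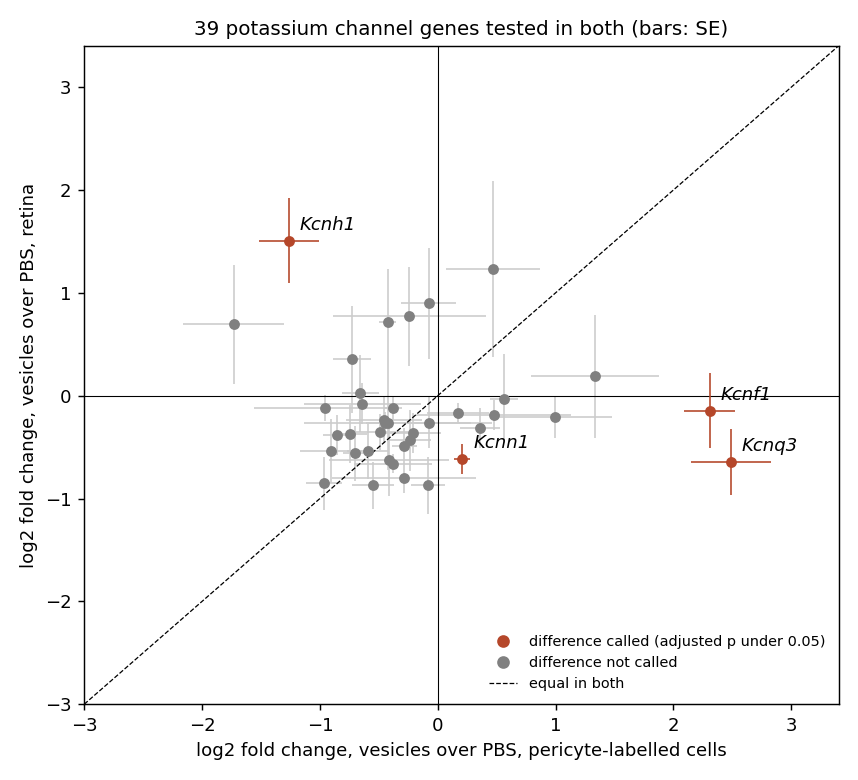
Log2 fold change, vesicles over PBS, in the retina (y axis) against that in pericyte-labelled cells (x axis) for the 39 potassium channel genes tested in both, with SE bars and a dashed line of equal change. Coloured points are the 4 genes whose difference passed; Kcnh1 lies at the upper left and Kcnn1, Kcnf1 and Kcnq3 at the right below 0 on the y axis.

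Genes that work beside these channels were read from 3 lists, whose counts stand beside the shares of all genes tested that passed, 10.7% higher and 5.19% lower in the retina and 10.9% higher and 8.9% lower in the pericyte-labelled cells. Of 17 tested channel partners in the retina, 1 fell (median log2 fold change -0.28), Cntnap2, which anchors Kv1 channels beside nodes, at 82.4 ± 13.96 CPM with vesicles, against 112 ± 7.77 CPM with PBS (SD, n = 3; edgeR adjusted p = 0.0396). In the pericyte-labelled cells 2 of 12 rose and 1 fell (median -0.12): the scaffolds Dlg4 and Ank3 rose and the Kv1-associated gene Adam22 fell. Dlg4 averaged 150 ± 10.2 CPM with vesicles, against 124 ± 4.41 CPM with PBS (SD, n = 3; edgeR adjusted p = 0.00224). Ank3 averaged 68.7 ± 1.29 CPM with vesicles, against 53.1 ± 1.73 CPM with PBS (SD, n = 3; edgeR adjusted p = 0.000136), and Adam22 34.9 ± 1.25 CPM with vesicles, against 42.3 ± 3.12 CPM with PBS (SD, n = 3; edgeR adjusted p = 0.0121). Of 8 other pore-loop cation channel genes in the retina, 1 fell (median -0.34), the rod channel subunit Cngb1, at 368 ± 41.1 CPM with vesicles, against 523 ± 30.4 CPM with PBS (SD, n = 3; edgeR adjusted p = 0.0118). Neither of 2 tested in the pericyte-labelled cells passed (median 0.75).

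Potassium pumps, exchangers and cotransporters went in both directions in the retina, where 3 of 19 rose and 3 fell (median -0.22), beside 10.7% and 5.19% of all genes. Among those that rose were the cotransporters Slc12a2, at 60.7 ± 13.4 CPM with vesicles, against 40.03 ± 4.46 CPM with PBS (SD, n = 3; edgeR adjusted p = 0.0327), and Slc12a7, at 6.87 ± 2.43 CPM with vesicles, against 2.78 ± 0.795 CPM with PBS (SD, n = 3; edgeR adjusted p = 0.0275). Among those that fell were the pump regulator Fxyd6, at 47.99 ± 12.4 CPM with vesicles, against 92.2 ± 12.9 CPM with PBS (SD, n = 3; edgeR adjusted p = 0.0129), and the rod exchanger Slc24a1, at 858 ± 64.1 CPM with vesicles, against 1210 ± 29.6 CPM with PBS (SD, n = 3; edgeR adjusted p = 0.00792). In the pericyte-labelled cells 1 of 17 rose and 4 fell (median 0.02), beside 10.9% and 8.9% of all genes. Slc12a7 rose, at 58.2 ± 2.48 CPM with vesicles, against 39.7 ± 1.28 CPM with PBS (SD, n = 3; edgeR adjusted p = 3.22e-06). Atp1b1, a sodium pump beta subunit gene, fell, at 369 ± 5.65 CPM with vesicles, against 443 ± 0.425 CPM with PBS (SD, n = 3; edgeR adjusted p = 0.000951). The exchanger Slc24a3 also fell, at 8.76 ± 0.973 CPM with vesicles, against 14.3 ± 0.826 CPM with PBS (SD, n = 3; edgeR adjusted p = 0.000144).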

How the data were processed

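Total RNA of 12 mouse libraries was sequenced from retinas after optic nerve crush and from cells labelled brain microvascular pericytes; per the labels' protocols, the RNA came from Trizol extraction and the libraries from a NEBNext Ultra RNA kit. Reads were checked with FastQC 0.11.8, aligned with HISAT2 2.0.5, counted with featureCounts 1.5.0-p3 and tested with limma, per the submitters' processing notes. Genome build, annotation and strand setting are not given in the sources used here. The deposited tables hold the authors' raw counts per gene, 1 table each for the retina and the pericyte-labelled cells; they list different gene sets, so levels were not compared across them. Series text on C3H10T1/2 knockdowns matches none of the samples.

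Each table was fitted on its own over all genes in R 4.3.3 with edgeR 4.0.16: filterByExpr with a minimum count of 10, TMM scaling and the robust quasi-likelihood test, 2-sided, with 4 residual degrees of freedom and Benjamini-Hochberg adjustment at 0.05. Retina libraries had a biological coefficient of variation of 0.203 and pericyte-labelled ones of 0.0818. CPM use TMM-scaled totals. The difference between tables was fitted with limma 3.58.1 on voom values with sample weights per table. Alternatives were DESeq2 1.42.0, its size factors in edgeR, limma-voom, no filter on low counts, each library left out, retinas without the most lens-rich library of each group, and a replicate block. No libraries were copies of each other, as chi-squared per degree of freedom was at least 10.5 in the retina and 5.87 in the pericyte-labelled cells. Per-length levels used merged exon lengths of the GENCODE M21 annotation.

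Genes given library by library were those that passed, up to 15 by size of change, and the most counted gene of each subfamily; further ones were added after their values were seen. Some genes that this takes in are not reported here. The genes and lists were chosen with earlier results of these data known. The scripts were tested on simulated data. Reads carry no molecular identifiers, so the limit of 3 counts covers counting error only.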

Additional observations from a re-analysis of the deposited data

Results flagged for a closer look

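The joint fit of both tables gave 4 potassium channel genes whose vesicle effect differed between retina and pericyte-labelled cells, as log2 fold change in the retina minus that in the pericyte-labelled cells. The difference was -3.10 for Kcnq3, -2.49 for Kcnf1, -0.83 for Kcnn1 and 2.67 for Kcnh1, and each passed again in all 13 alternative fits. Kcnq3 and Kcnf1 passed on their own only in the pericyte-labelled cells, while Kcnn1 and Kcnh1 passed in both tables with opposite signs. The retina call was lost in 4 of 11 alternative fits for Kcnn1 and in 7 of 11 for Kcnh1. The call of Kcnn1 in the pericyte-labelled cells was not followed through alternative fits. The Kcnh1 value in the retina was highest in the library with the most lens RNA, and without the most lens-rich library of each group its retina change was 0.80.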

How the results depend on the processing

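The retina counts depend on the processing. Against 2449 genes, 3 potassium channel genes that rose and 5 that fell, DESeq2 gave 11 that fell and no filter on low counts 8. Without the most lens-rich library of each group there were 1420 genes called and 1 potassium channel gene that rose. Leaving out 1 library gave 1328 to 2909 genes called, 1 to 3 that rose and 3 to 10 that fell; without vesicle library 1, 1401, 1 and 3; without vesicle library 2, 1381, 1 and 3; without vesicle library 3, 8 fell; without PBS library 1, 1 rose and 10 fell; without PBS library 2, 1328, 1 and 3. The cause was not tested.

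The pericyte-labelled counts of 3365, 4 and 18 stayed within 1.5 times in all alternatives, with 3 to 4 that rose and 14 to 18 that fell when 1 library was left out. With a replicate block they were 3287, 3 and 18. Same-numbered libraries correlated at only 0.0321, 0.0171 and -0.0219, which gives no sign that the numbers pair them but cannot exclude it. No block was possible in the retina, whose columns are not tied to numbered samples. The 4 genes that differed between tables ranged from 4 to 6. Over the named genes' alternatives, 297 values kept their call, 37 lost it, 7 gained one and 0 reversed. Genes near 1 CPM rest on few counts, which limits their precision.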
